A study of Rattus norvegicus with 6 samples.

Results

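The comparison described here set rat serum from untreated animals (MS-) against fetal bovine serum (FBS) as the supplement of the culture medium of synovial fibroblast-like cells. It used 4 of the 6 libraries of the series, 2 per serum, and every gene in the table. The cells came from the synovium of female Wistar rats with collagen-induced arthritis, a model of rheumatoid arthritis raised by immunization. Cells of each of 2 rats were split over the culture conditions, so that rat 1 and rat 2 each gave an FBS library and an MS- library. In the third condition, with 2 further libraries, the serum came from animals after 18 days of stimulation, called acupuncture in the labels (MS+). It entered the model fit and is quoted here at a single point. Accounts of where the MS- serum came from differ: animals before therapy, arthritic animals left untreated, and, in 1 field of the labels, healthy rats. The number of animals that gave the serum for the cultures was not stated, so the replicates stand for the rats that gave the cells and not for donors of serum. Species, age of the donor animal, heat treatment and batch of the 2 sera cannot be told apart in this design.

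Cultured fibroblasts depend on serum for growth signals. Serum carries growth factors, lipids bound to albumin and lipoproteins, steroid hormones, trace metals and clotting products, and adult and fetal serum differ in many of these. Genes that respond to such inputs include the cell cycle genes, the immediate early genes that follow mitogens within minutes, the targets of the fatty acid receptors of the PPAR family, the targets of the glucocorticoid receptor, and the metallothioneins, which bind zinc and copper. By the study methods, cells were harvested after days, not minutes, in each serum. The values below therefore do not describe an early response. In the joint, synovial fibroblasts make matrix, matrix proteases, hyaluronan and chemokines.

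Expression was given in CPM, that is reads scaled to the size of the library, with sizes adjusted by the TMM method. The 6 libraries held 5463316 to 5991889 reads, and the detection floor used here, 3 reads per library, was worth 0.491 to 0.551 CPM. Of 17221 transcript rows, 9697 had 1 CPM or more in both libraries of FBS or of MS- and were tested, 4863 were at 0 in the 4 libraries, and 2661 fell below the filter. Of 12 fibroblast markers, 10 were tested, among them Col1a1, Vim, Thy1 and Pdgfrb, while the proteoglycan genes Dcn and Lum had 0 to 4 reads per library. Of 11 macrophage and leukocyte markers, 8, among them Ptprc, C1qa and Cd3e, were at 0 in the 4 libraries, and the whole list summed to 1.64 to 1.66 CPM in FBS and 0.904 to 1.10 CPM in MS-. The 5 blood markers were at 0, so the whole list summed to 0 reads in FBS and in MS-. Of the 10 tested fibroblast markers 5 were called lower (limma with the rat as a block, adjusted p under 0.05), against 9.75% of all rows, and none higher. They were Col1a1, Col1a2, Col3a1, Thy1 and Pdpn, and 1 of them was called without the rat term and 1 each without MS- replicate 1 or 2. Of the endothelial markers only Tek was tested, and it measured 1.47 and 1.16 CPM in FBS against 1.46 and 0.181 CPM in MS-. None of 4 adipocyte markers passed the filter, and their sum was at most 0.663 CPM in any of the 4 libraries. The skeletal muscle list summed to 957 to 1130 CPM in FBS and 789 to 927 CPM in MS-, nearly all of it from Acta1, the skeletal actin gene. Acta1 measured 1113 and 929 CPM in FBS and 912 and 766 CPM in MS- (log2 difference -0.28, limma adjusted p 0.0189). It did not pass without the rat term (adjusted p 0.327), nor with MS- replicate 1 or 2 or FBS replicate 1 left out (adjusted p 0.284, 0.307 and 0.0598).

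Replacing FBS by MS- serum changed 2010 of the 9697 rows (20.7%) at a Benjamini-Hochberg adjusted p under 0.05. Of these, 1065 rows (11.0%) were higher and 945 (9.75%) lower in MS-. The counts of each gene list below are to be read beside these 2 shares. The test was limma on log2(CPM + 1) with the rat as a block, and all differences below are MS- minus FBS on that scale. Its added 1 CPM makes changes of low genes look smaller than they are. A change of 2-fold or more was reached by 382 of the called rows (3.94%), 134 higher (1.38%) and 248 lower (2.56%). Large changes were therefore more often falls, whereas the calls as a whole were split nearly evenly. The median difference over all tested rows was 0.01, and the median size of a called difference was 0.57. Without the block, limma called 471 rows (4.86%), 205 higher (2.11%) and 266 lower (2.74%), and these 471 were all among the 2010. The adjusted count also rested on single libraries: leaving out a single library gave 1227 (FBS replicate 1), 630 (MS- replicate 1) and 648 (MS- replicate 2). The rule of the study methods, an unadjusted p under 0.05 with 2-fold or more and here a mean of at least 1 CPM over FBS and MS-, called 379 rows (3.91%), 133 higher (1.37%) and 246 lower (2.54%), and 354 without the block (3.65%), 121 higher (1.25%) and 233 lower (2.40%). Both MS- libraries lay above both FBS libraries in 27.2% of the rows and below them in 24.7%. With 2 libraries per group and the rat as a block, p-values rest only in part on how far the serum differences varied between the cells of 2 rats. Level differences between the rats are taken out by the block. The remaining spread was estimated over all 6 libraries, MS+ among them, with 2 residual degrees of freedom per gene. To these limma added the spread of other genes, with a weight of 13.6 degrees of freedom (median). Most of each estimate of spread therefore came from other genes, and a small p-value is not a measure of how well the 2 rats agreed. A change in the number of cells in a given state and a change in RNA per cell cannot be told apart in bulk libraries.

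**Figure D1:**
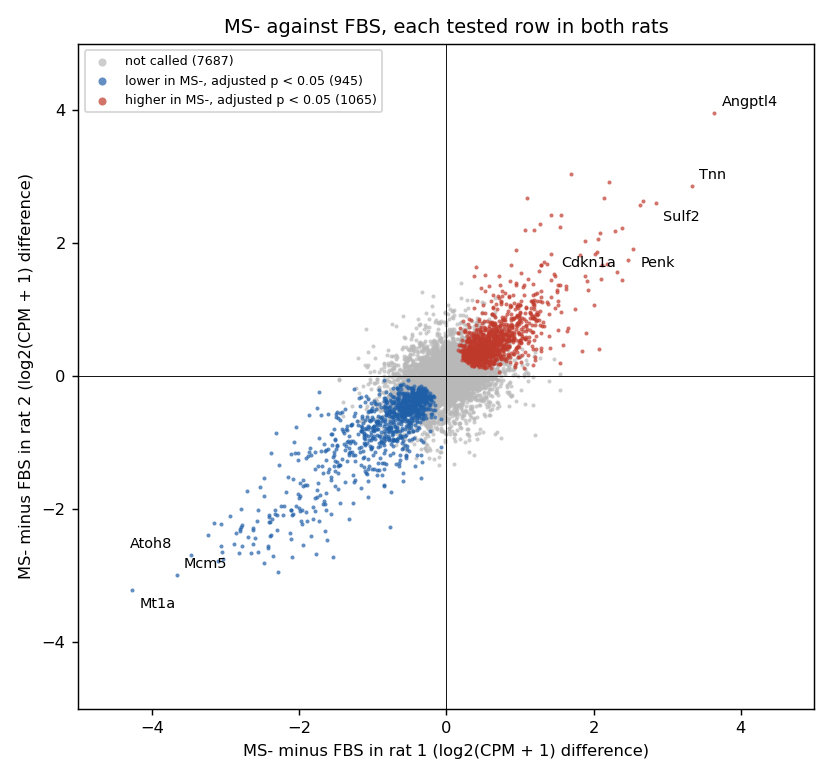
Difference between MS- and FBS in rat 1 (horizontal axis) and in rat 2 (vertical axis) for each of 9697 tested rows, in log2(CPM + 1) units; red rows were called higher and blue rows lower in MS- (limma with the rat as a block, adjusted p under 0.05), grey rows were not called. All 2010 called rows lie in the 2 quadrants where both rats moved the same way, from Angptl4 at the top right to Mt1a at the bottom left. The call itself favours rows on which the rats agree.

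Both rats gave similar differences. Across the tested rows the differences of rat 1 and rat 2 correlated with Pearson's r of 0.761 and Spearman's rho of 0.637, as a description across genes, which are not independent replicates. Of the 9697 tested rows, 7080 moved the same way in both rats. All 2010 called rows did so too, but the call itself favours rows on which the rats agree, so this adds no separate evidence.

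The largest rise was in Angptl4, a secreted inhibitor of lipoprotein lipase (NM_199115, chr7:16261623-16267852 in rn4, minus strand). It measured 0.491 and 0.497 CPM in FBS, 3 reads in each library, and 17.6 and 22.2 CPM in MS-. The log2 difference was 3.80 (SE 0.20, limma adjusted p 5.81e-09), and the ratio of reads was 40.3 with a 95% counting interval of 18.2 to 111. Tnn, the matrix glycoprotein tenascin-N (NM_001107189, chr13:75502879-75570266, minus strand), followed with 45.3 and 70.6 CPM in FBS against 466 and 519 CPM in MS-. Its difference was 3.10 (SE 0.12, adjusted p 1.88e-10). Sulf2, an extracellular sulfatase that trims heparan sulfate (NM_001034927, chr3:157197256-157298389, minus strand), rose from 17.5 and 36.5 to 132 and 227 CPM (2.73, SE 0.11, adjusted p 1.75e-10). For these 3 genes both MS- libraries lay far above both FBS libraries, and each was also called without the block (adjusted p 0.00181, 0.00181 and 0.0141).

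The other large rises fell into several kinds of gene. Pdk4 and Cpt1a, described with the lipid genes, control the entry of fuel into mitochondria. Cyp26b1, which breaks down retinoic acid, rose by 2.56 (SE 0.20, adjusted p 2.59e-07), from 1.64 and 1.66 to 11.2 and 19.2 CPM. Slc19a2, a thiamine transporter, rose by 2.13 (SE 0.16, adjusted p 1.30e-07), from 6.06 and 4.97 to 29.1 and 25.7 CPM. Abcb1b, a drug efflux pump, rose by 2.31 (SE 0.10, adjusted p 8.39e-10), and its row overlaps one of another symbol. The chemokine gene Ccl7 and the sulfotransferase gene Sult1a1 were also among the 12 largest rises, and so was Penk. Penk, the precursor of enkephalins, measured 191 CPM in rat 1 and 1482 CPM in rat 2 with FBS, and 1112 and 5588 CPM with MS-. It rose in both rats, by 2.54 and 1.91, but the groups overlapped because the rats differed, and without the block its adjusted p was 0.332 (2.32e-08 with it).

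The largest fall was in Mt1a, a metallothionein (NM_138826, chr19:11261631-11262647, minus strand). It measured 28.8 and 13.3 CPM in FBS and 0.549 and 0.542 CPM, 3 reads each, in MS-. The log2 difference was -3.74 (SE 0.29, adjusted p 2.19e-07), and the reads were 38.7 times higher in FBS (95% counting interval 17.5 to 106). Mcm5, a subunit of the replicative helicase (NM_001106170, chr19:13978940-14000641, plus strand), measured 23.2 and 18.4 CPM in FBS and 0.915 and 1.45 CPM in MS- (-3.33, SE 0.24, adjusted p 9.88e-08). Atoh8, a transcription factor of the helix-loop-helix class, fell by 3.08 (SE 0.37, adjusted p 2.22e-05), from 18.2 and 10.1 to 0.732 and 0.723 CPM. The other 9 of the 12 largest falls, Cdca3, Nuf2, Iqgap3, Fam64a, Ube2c, Ccna2, Tacc3, Plk1 and Ccnf, are known from dividing cells, and their differences ran from -2.94 (Cdca3) to -2.67 (Ccnf). For all 12 falls both MS- libraries lay below both FBS libraries, and all 12 were also called without the block.

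**Figure D2:**
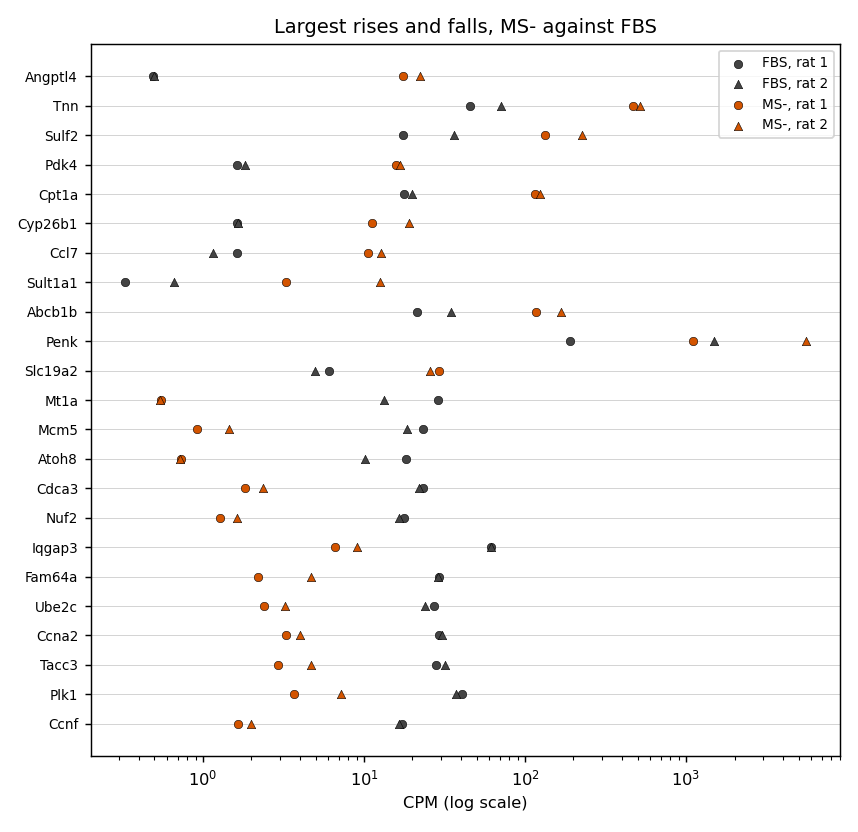
CPM in each of the 4 libraries (log scale) of 11 of the 12 genes with the largest called rises and of the 12 with the largest called falls; grey symbols are FBS, orange symbols MS-, circles rat 1 and triangles rat 2. The orange and grey symbols are apart for 22 of the genes and overlap for Penk, whose FBS value in rat 2 (1482 CPM) exceeded its MS- value in rat 1 (1112 CPM).

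Cell cycle genes made up a large share of the strong falls. Of the 248 rows lower by 2-fold or more, 57 (23.0%) belonged to 4 lists of cell cycle genes that together held 93 tested genes, and 1 of the 134 higher rows did, Cdkn1a. Mitosis genes fell throughout: 31 of 31 tested were called lower in MS-, 30 of them also without the block, with a median difference of -2.39 against 0.01 over all rows. Their summed level was 898 and 907 CPM in FBS, 154 and 184 CPM in MS-, and 316 and 386 CPM in MS+. Ube2c, which marks cyclins for destruction in mitosis, measured 27.3 and 24.0 CPM in FBS and 2.38 and 3.25 CPM in MS-. Ccna2, the cyclin of S phase and mitotic entry, measured 29.3 and 30.3 CPM in FBS and 3.29 and 3.98 CPM in MS-. Plk1, a mitotic kinase, fell from 40.4 and 37.1 to 3.66 and 7.23 CPM (-2.68, SE 0.21, adjusted p 2.34e-07). Prc1, which bundles microtubules of the spindle midzone, fell from 111 and 110.1 to 27.1 and 30.4 CPM (-1.91, SE 0.11, adjusted p 1.92e-08). Kif2c, a microtubule depolymerase named after its values were seen, had the smallest difference of the list on the log2(CPM + 1) scale, -1.17 (limma adjusted p 0.0190). At 1.96 and 1.33 CPM in FBS and 0.366 and 0 CPM in MS- it lay near the floor, where the added 1 CPM shrinks differences. Its fall is therefore not the smallest as a ratio of CPM. The row of Kif2c overlaps another of the same symbol. It was the member not called without the block (adjusted p 0.0973), and it had 0 reads in MS- of rat 2.

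The genes that load the helicase onto origins before S phase fell as well, with 17 of 19 called lower and a median of -1.53. Cdc6, a loading factor, measured 7.04 and 7.46 CPM in FBS and 0.366 and 0.362 CPM, 2 reads each, in MS- (ratio of reads 19.9, 95% counting interval 7.51 to 74.8, in favour of FBS). Mcm3 fell by 2.12 and Mcm6 fell by 1.77. Mcm2, another helicase subunit, fell less, from 48.9 and 43.8 to 28.7 and 28.6 CPM (-0.67, SE 0.14, adjusted p 0.00281), and was not called without the block (0.0883) or without MS- replicate 1 (0.160). The 2 members that were not called, Gins3 and Cdc7, chosen after their values were seen, measured -0.84 and -0.58 (adjusted p 0.0680 and 0.0651). Without the block 10 licensing genes were called lower, and 10 without MS- replicate 1.

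**Figure D3:**
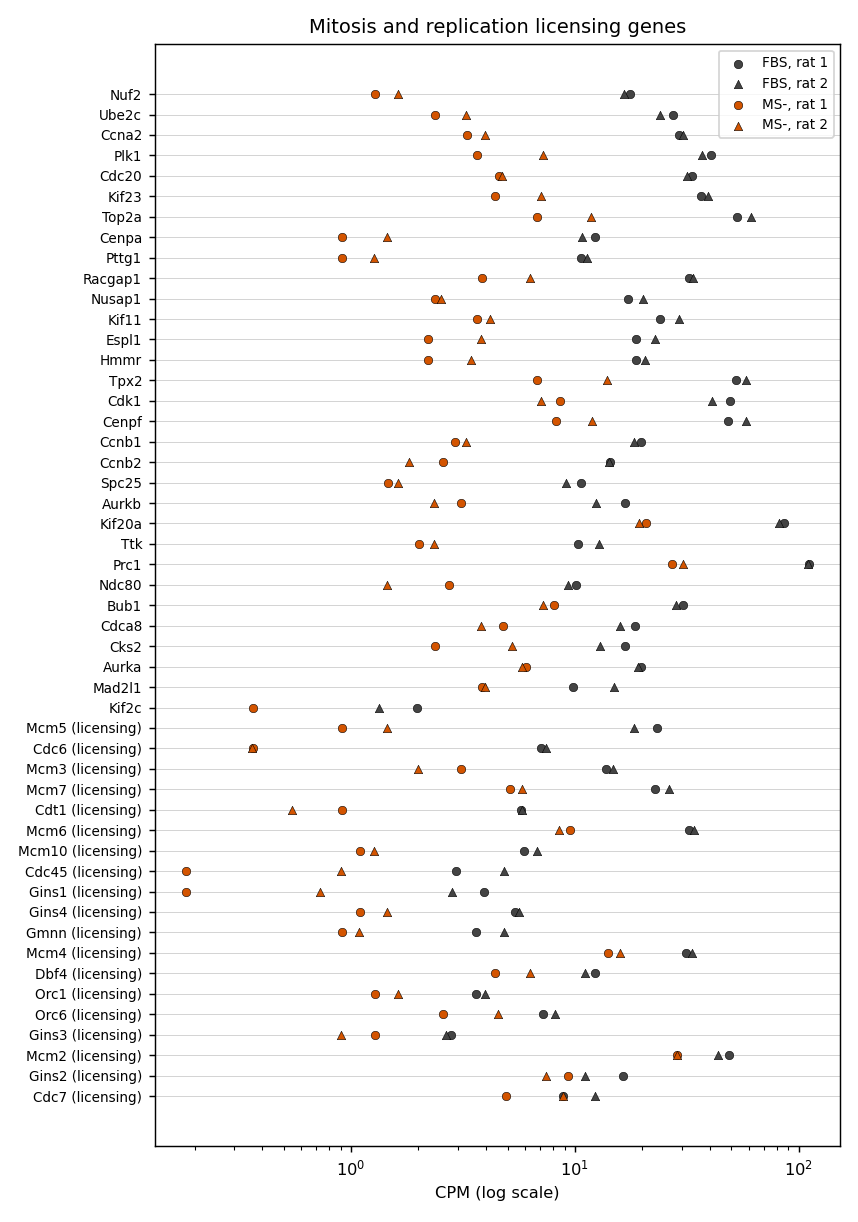
CPM in each of the 4 libraries (log scale) of the 31 tested mitosis genes and the 19 tested replication licensing genes, ordered by their difference within each list; grey symbols are FBS, orange symbols MS-, circles rat 1 and triangles rat 2. For each of the 31 mitosis genes the orange symbols lie to the left of the grey ones; Kif2c, at 0 reads in MS- of rat 2, has no triangle for that library.

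Genes of DNA synthesis and nucleotide supply were called lower in 18 of 25 cases and higher in 1, Tyms, which makes thymidylate. Rrm2, the regulated subunit of ribonucleotide reductase, measured 54.8 and 57.7 CPM in FBS and 7.87 and 8.32 CPM in MS- (-2.66, SE 0.15, adjusted p 1.28e-08). Uhrf1, which keeps DNA methylation through replication, fell by 2.17 (SE 0.22, adjusted p 3.51e-06). Tyms, chosen after its values were seen, rose from 14.4 and 15.4 to 19.6 and 24.0 CPM (0.51, SE 0.15, adjusted p 0.0242), and was not called without the block (0.116). Rfc1, a clamp loader subunit, measured 47.3 and 51.2 CPM in FBS and 48.7 and 55.9 CPM in MS- (adjusted p 0.664). This count was the least stable of the cell cycle lists: of its 19 calls, 9 were made without the block, 8 without MS- replicate 1 and 9 without MS- replicate 2.

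The promoters of mitosis, licensing and DNA synthesis genes were searched for the short elements known from such genes. The promoter windows, from 250 bases before to 50 bases after the annotated start, were those of RefSeq in assembly GRCr8, whereas the expression table used rn4, and only names were matched between them. Windows were found for 26 of the 31 tested mitosis genes. The cell cycle homology region TTTGAA stood, on either strand, in 20 of the 26 (76.9%), against 18.1% of all 27457 promoter windows. The CCAAT box was in 20 of the 26 as well (76.9%), against 37.7% of all windows, and both elements together were in 17 (65.4%) against 7.25%. The E2F elements TTTCCCGC or TTTGGCGC were in 8 of 15 licensing windows (53.3%) and in 6 of 22 windows of DNA synthesis genes (27.3%), against 1.53% of all windows. These are matches of letters, not mapped binding sites. They were counted over the tested members of a list, called or not, against the windows of all genes, expressed or not. They describe the lists, and a link between the elements and the change between sera was not tested. The windows of Plk1 (chr1:186147408-186147707, plus strand) and Cdc20 (chr5:137255750-137256049, minus strand) are shown because they hold both mitotic elements and their genes fell by more than the list median. The window of Mcm5 (chr19:13488563-13488862, plus strand) is shown for its E2F elements. Capitals mark the elements, on either strand.
Plk1: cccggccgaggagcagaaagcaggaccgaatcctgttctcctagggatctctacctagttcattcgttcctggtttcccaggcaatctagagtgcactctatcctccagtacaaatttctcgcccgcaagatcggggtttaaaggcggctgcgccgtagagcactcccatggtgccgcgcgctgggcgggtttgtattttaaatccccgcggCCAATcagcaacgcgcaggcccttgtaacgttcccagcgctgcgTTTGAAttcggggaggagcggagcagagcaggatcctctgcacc
Cdc20: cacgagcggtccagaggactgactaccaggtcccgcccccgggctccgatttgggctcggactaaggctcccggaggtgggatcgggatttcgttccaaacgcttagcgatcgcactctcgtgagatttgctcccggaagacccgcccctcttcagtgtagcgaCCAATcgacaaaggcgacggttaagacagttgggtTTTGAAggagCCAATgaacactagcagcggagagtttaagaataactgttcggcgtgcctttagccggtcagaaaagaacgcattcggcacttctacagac
Mcm5: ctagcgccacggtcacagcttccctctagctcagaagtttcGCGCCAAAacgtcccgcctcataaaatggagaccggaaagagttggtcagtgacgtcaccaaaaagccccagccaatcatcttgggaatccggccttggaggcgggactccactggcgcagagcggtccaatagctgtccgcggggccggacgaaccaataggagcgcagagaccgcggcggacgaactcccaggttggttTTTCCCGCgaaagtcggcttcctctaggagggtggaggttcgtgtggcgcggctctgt

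Among the regulators of G1, the phase before DNA synthesis, 9 of 18 genes fell and 3 rose. E2f1, the transcription factor that drives S phase genes, fell from 19.2 and 21.2 to 4.76 and 4.70 CPM (-1.89, SE 0.19, adjusted p 3.56e-06). E2f7, a repressor of the same family, fell by 1.95 (SE 0.28, adjusted p 9.34e-05). Cdkn1a, the CDK inhibitor p21, measured 239 and 247 CPM in FBS and 657 and 718 CPM in MS- (1.50, SE 0.08, adjusted p 5.81e-09). Cdkn1a was the only CDK inhibitor of the list called higher. Cdkn2c, a CDK inhibitor of the INK4 family, moved the other way, from 24.9 and 20.6 to 6.95 and 8.86 CPM (-1.42, SE 0.22, adjusted p 0.000293). Cdkn2b, of the same family, fell by 0.80 (SE 0.13, adjusted p 0.000366; 0.0436 without the block). Cdkn2a, chosen after its values were seen, fell by 0.75 (SE 0.16, adjusted p 0.00334; 0.0515 without the block). Ccnd1, cyclin D1, fell by 0.43 (SE 0.09, adjusted p 0.00198), but was not called without the block (0.294), without MS- replicate 1 (0.164) or without MS- replicate 2 (0.0523). Of the 12 calls in this list, 6 were made without the block, 6 without MS- replicate 1 and 7 without MS- replicate 2.

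Targets of the tumour suppressor p53 rose in 7 of 13 cases, against 11.0% of all rows, and fell in none, with a median of 0.63. The 7 were also called without the block. Btg2, an antiproliferative gene that is also an immediate early gene, measured 92.8 and 98.2 CPM in FBS and 345 and 406 CPM in MS- (1.96, SE 0.12, adjusted p 2.32e-08). Ccng1, cyclin G1 (NM_012923, chr10:25776380-25782754, minus strand), measured 429.5 and 473 CPM in FBS and 1034 and 1035 CPM in MS- (1.20, SE 0.08, adjusted p 6.06e-08). Mdm2, the ubiquitin ligase of p53, rose by 0.91 (SE 0.11, adjusted p 1.83e-05), from 134 and 135 to 247 and 258 CPM. Zmat3 and Phlda3 rose by 0.83 and 0.68. Fas, the death receptor and the seventh called member, was chosen after its values were seen and rose by 0.63. It did not pass with MS- replicate 2 left out (adjusted p 0.0634). The list shares Cdkn1a with the G1 list and Btg2 with the immediate early list.

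Genes of fatty acid oxidation and targets of PPAR receptors rose in 13 of 24 cases and fell in 1, with a median of 0.50, and 9 of the rises were also called without the block. Cpt1a, which controls the entry of long-chain fatty acids into mitochondria (NM_031559, chr1:205852800-205912972, plus strand), measured 17.7 and 19.9 CPM in FBS and 115 and 124 CPM in MS- (2.61, SE 0.10, adjusted p 1.75e-10). Pdk4, a kinase that shuts off pyruvate oxidation, rose from 1.64 and 1.82 to 15.7 and 16.6 CPM (2.65, SE 0.18, adjusted p 5.86e-08). Ech1, an enzyme of unsaturated fatty acid oxidation, rose by 1.52 (SE 0.12, adjusted p 2.30e-07). The rises were strong in Angptl4, Pdk4 and Cpt1a, while the 2 subunits of the trifunctional protein differed. Hadhb measured 158 and 134 CPM in FBS and 145 and 122 CPM in MS- (-0.13, adjusted p 0.308). Hadha, chosen after its values were seen, rose from 97.7 and 78.8 to 155 and 139 CPM (0.73, SE 0.09, adjusted p 3.73e-05; 0.0258 without the block). Fabp3, a fatty acid binding protein, was the member that fell, from 90.2 and 48.7 to 33.8 and 23.5 CPM (-1.21, SE 0.14, adjusted p 1.37e-05; 0.0843 without the block), and its row overlaps one of another symbol.

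Lipid synthesis moved little beside this. Of 11 tested genes of fatty acid synthesis and desaturation, 2 fell and none rose. They were 2 stearoyl-CoA desaturase genes, listed as Scd and Scd1, which are close relatives whose reads may be shared. Scd measured 161 and 349.5 CPM in FBS and 106 and 175 CPM in MS- (-0.80, SE 0.10, adjusted p 2.02e-05), and Scd1 fell by 1.20 (SE 0.16, adjusted p 4.57e-05). The groups overlapped for Scd and were apart for Scd1, rat 2 was higher in both sera, and neither passed without the block (0.349 and 0.266). Of 23 cholesterol synthesis and uptake genes, 3 fell, Dhcr7 and Acat2 (listed as Acat3) among them, and none rose, and the median of the list was -0.03. Without the block none of the 23 was called, nor without MS- replicate 2 or FBS replicate 1. Of 12 genes of sterol efflux and LXR, the oxysterol receptor, 3 rose and 1 fell, and none was called without the block, without MS- replicate 1 or 2, or without FBS replicate 1. Leaving out an MS+ library raised these 3 counts to 5, 8 and 6.

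Glucocorticoid targets were higher in MS- in 13 of 14 cases, against 11.0% of all rows, with a median of 0.94. Per1, a clock gene with glucocorticoid response elements, measured 33.7 and 40.0 CPM in FBS and 106 and 104 CPM in MS- (1.49, SE 0.11, adjusted p 1.25e-07). Fkbp5, a chaperone of the receptor, rose from 16.9 and 15.4 to 31.6 and 43.2 CPM (1.15, SE 0.15, adjusted p 4.62e-05). Zbtb16, a zinc finger repressor, had 0 reads in both FBS libraries and 1.28 and 3.62 CPM in MS-, at least 4.95-fold higher against a floor of 3 reads in each FBS library (adjusted p 0.00117; 0.0889 without the block and 0.0609 without MS- replicate 2). Sult1a1, a sulfotransferase, measured 0.327 and 0.663 CPM in FBS and 3.29 and 12.7 CPM in MS-, a ratio of reads of 16.2 (95% counting interval 7.15 to 45.3), with an adjusted p of 6.76e-05, or 0.134 without the block. Dusp1, a phosphatase of MAP kinases, rose by 0.47 (SE 0.09, adjusted p 0.000970), but was not called without the block (0.0883) or without MS- replicate 2 (0.146). The remaining member, the receptor gene Nr3c1, chosen after its values were seen, measured 96.3 and 109 CPM in FBS and 109 and 138 CPM in MS- (0.26, SE 0.09, adjusted p 0.0529). Most of these calls depended on the block: 4 of the 14 were called without it, and 7 were called without MS- replicate 2. Of 15 clock genes 4 rose and none fell. They were Per1, Clock, Nr1d1 and Bhlhe40, and 1 was called without the block. With FBS replicate 1, MS- replicate 1 or MS- replicate 2 left out, 2, 2 and 1 were called, and 6 with an MS+ library left out.

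**Figure D4:**
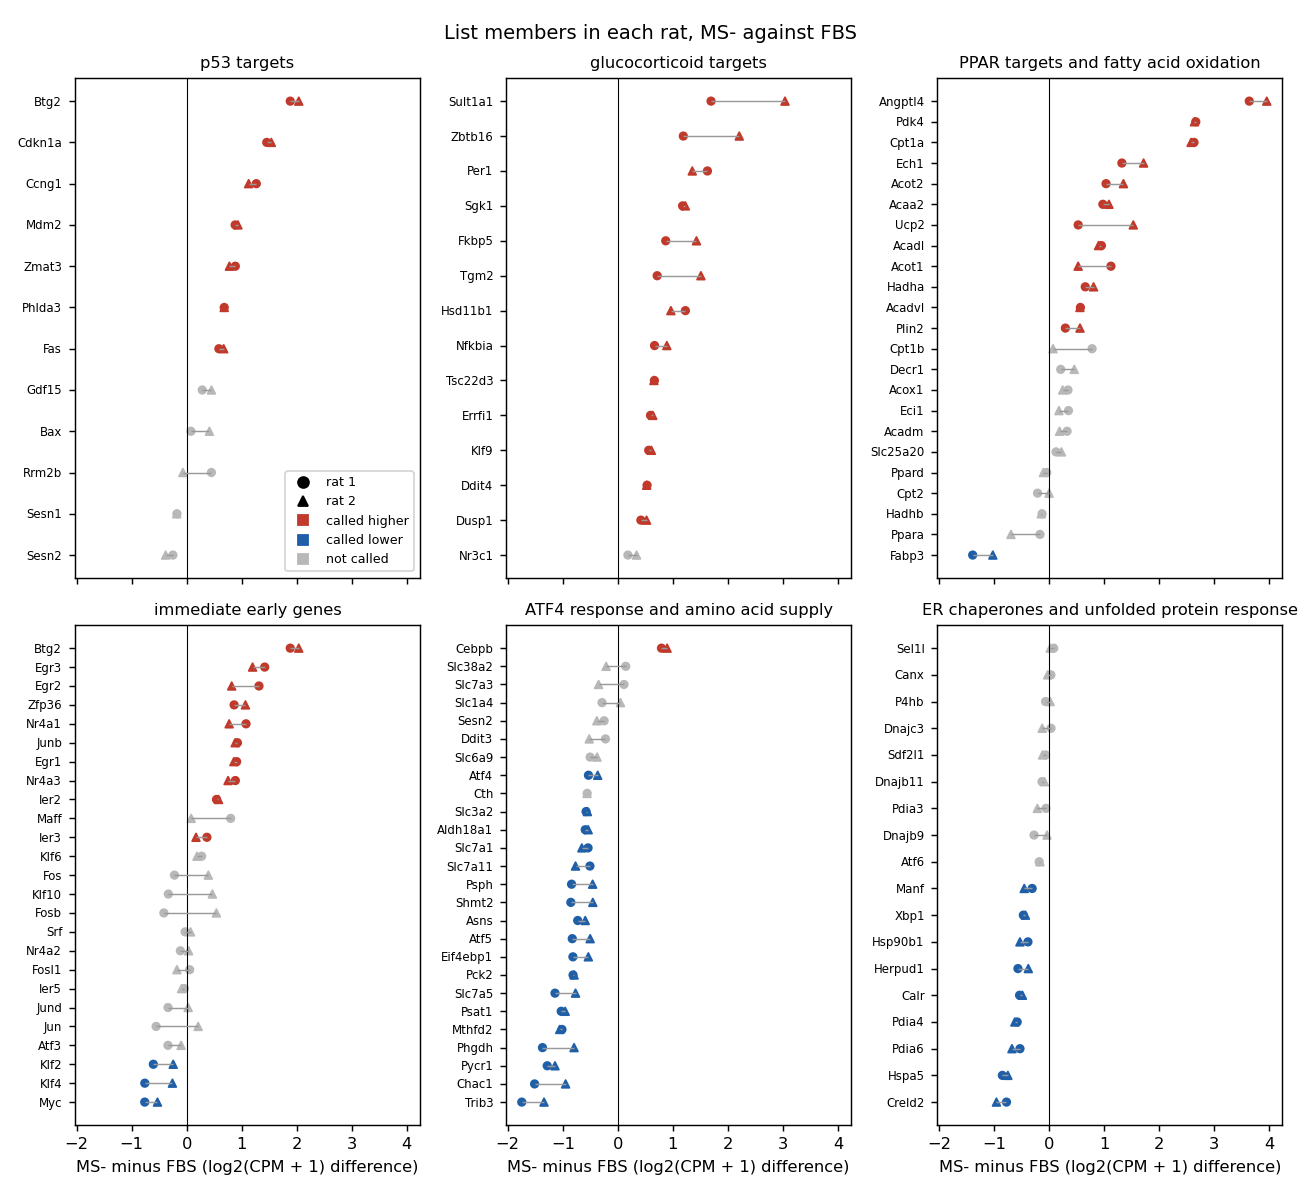
Difference between MS- and FBS in rat 1 (circles) and rat 2 (triangles), in log2(CPM + 1) units, for the reported members of 6 gene lists; red members were called higher and blue members lower in MS- (limma with the rat as a block, adjusted p under 0.05), grey members were not called. The glucocorticoid list lies to the right of 0 in both rats for all 14 members, and in the ATF4 list 18 of 26 members are blue.

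Immediate early genes split. Of 25 tested, 10 rose and 3 fell, and 7 of the rises were also called without the block, with a list median of 0.09. Egr3 and Egr2, zinc finger factors induced by mitogens, rose by 1.31 (SE 0.23, adjusted p 0.000848) and 1.07 (SE 0.18, adjusted p 0.000490). Egr1 measured 314 and 455 CPM in FBS and 590.0 and 826 CPM in MS- (0.88, SE 0.14, adjusted p 0.000260; 0.0799 without the block). Zfp36, which destabilizes cytokine mRNA, rose from 231 and 235 to 421 and 494 CPM (0.97, SE 0.09, adjusted p 1.16e-06). Junb, an AP-1 subunit, rose from 316 and 358 to 600.0 and 661 CPM, and the nuclear receptor Nr4a1 from 189 and 226 to 399.9 and 386 CPM. The 3 that fell, Klf2, Klf4 and Myc, are transcription factors chosen after their values were seen, and none of them was called without the block. Of 11 feedback genes of the ERK pathway none rose and 2 fell, Dusp6 and Etv5, which is about 1 gene more than the 9.75% of all rows would give. They were not called without the block, 1 was called without MS- replicate 1, and none without MS- replicate 2 or FBS replicate 2.

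Genes of the ATF4 response, which supplies amino acids under amino acid shortage and endoplasmic reticulum stress, were lower in MS- in 18 of 26 cases and higher in 1, with a median of -0.64. Trib3, a pseudokinase, measured 85.8 and 46.4 CPM in FBS and 24.9 and 17.7 CPM in MS- (-1.54, SE 0.17, adjusted p 6.98e-06). The serine synthesis enzymes Phgdh and Psat1 fell by 1.08 (SE 0.15, adjusted p 8.60e-05) and 0.99 (SE 0.13, adjusted p 4.43e-05). Mthfd2, of mitochondrial folate metabolism, fell from 93.5 and 76.6 to 45.7 and 36.3 CPM (-1.04, SE 0.12, adjusted p 1.41e-05). Chac1, which degrades glutathione, fell by 1.23 (SE 0.19, adjusted p 0.000246; 0.0626 without the block). Slc38a2, an amino acid transporter, measured 670.3 and 670.5 CPM in FBS and 741 and 578 CPM in MS- (adjusted p 0.835). The 1 that rose was Cebpb, a partner of ATF4 chosen after its values were seen, at 0.84 (SE 0.10, adjusted p 1.50e-05). Without the block 9 of the falls were called. The composite element TGATGNAA was found in 6 of 23 promoter windows of the list, of genes called or not (26.1%), against 3.82% of all windows. The match in Trib3 (chr3:161275484-161275783, minus strand, GRCr8) is in capitals.
Trib3: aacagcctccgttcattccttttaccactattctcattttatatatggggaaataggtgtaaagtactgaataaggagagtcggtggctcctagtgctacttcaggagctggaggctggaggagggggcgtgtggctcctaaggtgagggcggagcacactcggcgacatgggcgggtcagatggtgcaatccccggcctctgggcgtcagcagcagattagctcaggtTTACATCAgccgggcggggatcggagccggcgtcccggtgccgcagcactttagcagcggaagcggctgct

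Other genes of protein synthesis and folding fell less. Of 19 tRNA synthetase genes, which charge tRNAs with amino acids, 11 fell and none rose, with a median of -0.34. Iars, for isoleucine, fell from 158 and 169 to 98.2 and 95.8 CPM (-0.75, SE 0.10, adjusted p 5.99e-05). Iars was the 1 called without the block, and 7, 5 and 3 of the 19 were called without the first FBS, the first MS- and the second MS- library. Of 18 chaperone genes of the endoplasmic reticulum, 9 fell and none rose. Hspa5, the chaperone BiP, measured 957 and 944 CPM in FBS and 531 and 561 CPM in MS- (-0.80, SE 0.09, adjusted p 8.59e-06), and Pdia4, a disulfide isomerase, fell by 0.60 (SE 0.08, adjusted p 4.26e-05). P4hb, another isomerase, measured 1828 and 1760 CPM in FBS and 1750 and 1782 CPM in MS- (adjusted p 0.890). Hspa5, Creld2, Pdia4 and Pdia6 were also called without the block, and 4 of the 18 were called without MS- replicate 1.

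Of 14 genes of metallothioneins and zinc transport, 3 fell and 4 rose. Beside Mt1a, the second metallothionein Mt2A fell from 8.68 and 4.97 to 0.732 and 0.723 CPM (-2.14, SE 0.30, adjusted p 9.49e-05). Slc30a1, which exports zinc, fell by 0.73 (SE 0.15, adjusted p 0.00291), but was not called without the block (0.107) or without MS- replicate 2 (0.151). The 4 rises, Slc39a13, Slc39a1, Slc39a6 and Slc39a14 (the last chosen after its values were seen), were of up to 0.48. All 4 are genes of the zinc importer family, and 1 of them was called without the block. Of the 7 calls, 3 were made without MS- replicate 1 and 3 without MS- replicate 2. The metal response elements TGCGCNC or TGCACNC were in 9 of 12 promoter windows of the list (75.0%) against 25.0% of all windows. The list holds members that fell, rose or were not called. The window of Mt1a (named Mt1 in RefSeq, chr19:10832926-10833225, minus strand, GRCr8) holds 6 of them, in capitals, and is shown because Mt1a had the largest fall.
Mt1a: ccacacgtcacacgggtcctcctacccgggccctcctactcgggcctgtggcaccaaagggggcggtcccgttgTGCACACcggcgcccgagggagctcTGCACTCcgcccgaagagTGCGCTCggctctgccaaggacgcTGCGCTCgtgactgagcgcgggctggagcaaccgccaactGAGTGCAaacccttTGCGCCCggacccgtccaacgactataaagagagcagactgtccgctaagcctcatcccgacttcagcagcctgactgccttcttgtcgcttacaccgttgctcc

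Matrix genes did not move as a block. Of 21 collagen genes and their modifying enzymes, 9 fell and 5 rose, with a median of -0.23. Col5a3 fell from 225 and 199.8 to 83.4 and 83.9 CPM (-1.33, SE 0.09, adjusted p 7.69e-08), and it was the 1 member called without the block. The chains of the main fibrillar collagens fell less: Col1a1 measured 40458 and 34296 CPM in FBS and 23563 and 23624 CPM in MS- (-0.66, SE 0.14, adjusted p 0.00339), and Col1a2 and Col3a1 fell by 0.50 and 0.32. Col1a1, Col1a2 and Col3a1 did not pass without the block (adjusted p 0.185, 0.229 and 0.293). Col1a1 also missed it without MS- replicate 1 or 2 (0.346 and 0.177), and of the 14 collagen calls 3 and 5 were made without these libraries. Col18a1, a basement membrane collagen, rose by 0.67 (SE 0.09, adjusted p 9.11e-05; 0.333 without the block), with overlapping groups.

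Among 16 matrix glycoproteins and proteoglycans, 4 rose and 3 fell. The 4 rises were Tnn and 3 neighbouring genes of chromosome 17, the small leucine-rich proteoglycans Ogn, Omd and Aspn. Ogn (chr17:20987029-21007525, minus strand) measured 293 and 182 CPM in FBS and 567 and 684 CPM in MS- (1.43, SE 0.15, adjusted p 4.23e-06). Omd (chr17:21015179-21023126) and Aspn (chr17:21035597-21058999) rose by 1.78 and 1.89, more in rat 2 (2.29 and 2.68) than in rat 1 (1.27 and 1.10), and were not called without the block (0.132 and 0.173). Acan, the aggrecan of cartilage, fell from 2585 and 3012 to 1452 and 1827 CPM (-0.78, SE 0.10, adjusted p 4.38e-05). Of the 7 calls in this list 3 were made without the block. Fn1, fibronectin, measured 27464 and 30465 CPM in FBS and 25852 and 26053 CPM in MS- (adjusted p 0.480).

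Heparan sulfate proteoglycans and the enzymes of their chains changed in both directions, with 5 of 16 higher and 6 lower. The sulfatases Sulf2 and Sulf1 rose, Sulf1 by 0.62 (SE 0.09, adjusted p 8.80e-05; 0.537 without the block). Of the syndecans, which carry the chains at the cell surface, Sdc1 fell from 127 and 134 to 53.4 and 66.7 CPM (-1.12, SE 0.11, adjusted p 2.31e-06), and Sdc4 rose from 140.3 and 204 to 258 and 326 CPM (0.78, SE 0.10, adjusted p 4.97e-05; 0.0715 without the block). Sulf2 and Sdc1 were the 2 called without the block, and 4 and 7 of the 16 were called without MS- replicate 1 and 2. Of 22 matrix proteases and inhibitors 6 rose and 5 fell. Adamts1, a protease of proteoglycans, rose from 312 and 384 to 685 and 754 CPM (1.05, SE 0.09, adjusted p 4.23e-07). Timp3, an inhibitor of metalloproteases, fell from 225 and 220.2 to 102 and 93.5 CPM (-1.18, SE 0.10, adjusted p 5.00e-07), with a row that overlaps one of another symbol. Mmp2, a gelatinase, rose by 0.65 (SE 0.08, adjusted p 3.86e-05; 0.0881 without the block). Of the 11 calls 4 were made without the block, 5 without MS- replicate 1 and 4 without MS- replicate 2.

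Of 11 genes of the synovial lining, 3 rose and 3 fell. Cd55, the complement decay factor carried by lining cells, rose from 13.9 and 16.4 to 63.5 and 54.8 CPM (1.90, SE 0.13, adjusted p 5.86e-08). Pdpn, podoplanin, fell from 40.9 and 42.4 to 21.2 and 22.2 CPM (-0.91, SE 0.14, adjusted p 0.000201). Thy1, the marker of sublining fibroblasts, fell by 0.37 (SE 0.08, adjusted p 0.00537), but was not called without the block (0.184) or without MS- replicate 1 or 2 (0.179 and 0.191). Of the 6 calls 3 were made without the block, and 3 each without MS- replicate 1 and 2.

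Components and targets of BMP signalling had 12 of 30 genes lower and 9 higher. Beside Atoh8, Id1, a direct target of SMAD proteins, fell from 63.8 and 50.6 to 16.6 and 21.5 CPM (-1.54, SE 0.15, adjusted p 3.16e-06). Nog, the secreted BMP antagonist noggin, fell by 1.58 (SE 0.29, adjusted p 0.00104; 0.0533 without the block and 0.0821 without MS- replicate 1). Fstl3, a binding protein of activins, rose from 92.7 and 64.8 to 206 and 143 CPM (1.14, SE 0.09, adjusted p 2.30e-07; 0.0712 without the block). Atoh8 and Id1 were the 2 called without the block. The count of 21 calls dropped to 12 with FBS replicate 1 left out, and to 4 and 9 with MS- replicate 1 or 2 left out.

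Secreted factors and their receptors changed gene by gene. Pappa, a protease that frees IGF from its binding proteins, rose from 38.0 and 18.9 to 157 and 70.3 CPM (1.93, SE 0.12, adjusted p 2.32e-08), in both rats (2.02 and 1.84), but was not called without the block (0.124). Angpt1, the ligand of the endothelial receptor Tek, measured 2.13 and 0.497 CPM in FBS and 14.6 and 3.43 CPM in MS-, a ratio of reads of 6.83 (95% counting interval 4.0 to 12.4), with an adjusted p of 4.06e-05, or 0.215 without the block. Nov, a matricellular protein of the CCN family, rose from 270.4 and 763 to 1506 and 2560 CPM (2.11, SE 0.15, adjusted p 1.18e-07; 0.0600 without the block). F2r, the thrombin receptor, rose from 773 and 912 to 1835 and 1743 CPM (1.09, SE 0.09, adjusted p 4.90e-07), and Sfrp4, a secreted Wnt antagonist, fell by 1.36 (SE 0.25, adjusted p 0.00114). Of 11 genes of the CCN family and YAP targets 6 rose and none fell, among them Ctgf (0.58, SE 0.12, adjusted p 0.00230; 0.130 without the block, 0.234 and 0.165 without MS- replicate 1 and 2). In that list 1 was called without the block, and 2 and 1 without MS- replicate 1 and 2.

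Inflammatory genes did not share a direction: of 15 cytokine and chemokine genes 5 rose and 3 fell. The monocyte chemoattractants Ccl7 and Ccl2 rose by 2.41 (SE 0.23, adjusted p 2.06e-06) and 1.63 (SE 0.23, adjusted p 9.35e-05). Ccl7 measured 1.64 and 1.16 CPM in FBS and 10.6 and 12.8 CPM in MS-, and Ccl2 measured 10.1 and 7.46 CPM against 22.3 and 38.0 CPM. Cxcl1, a neutrophil chemoattractant, rose from 7.86 and 6.30 to 30.2 and 24.8 CPM (1.82, SE 0.17, adjusted p 1.21e-06). Cxcl12, the stromal ligand of Cxcr4, fell from 24.6 and 37.5 to 8.23 and 13.0 CPM (-1.46, SE 0.16, adjusted p 8.10e-06), with a row that overlaps another of the same symbol. Il6 fell by 0.76 (SE 0.24, adjusted p 0.0323), but was not called without the block (0.30), without MS- replicate 1 or 2 (0.470 and 0.0606) or without FBS replicate 2 (0.0925). The first 4 of these genes were also called without the block, and 4 and 5 of the 8 calls were made without MS- replicate 1 and 2. Complement genes rose in 6 of 11 cases and fell in none. Of these Cd55 was the 1 called without the block, and 4, 1 and 2 were called without FBS replicate 2, MS- replicate 1 and MS- replicate 2. Of 13 genes of prostaglandin synthesis and its receptors 5 rose and 3 fell, led by Ptgfr, the receptor of prostaglandin F, which rose from 16.7 and 22.5 to 49.0 and 55.7 CPM (1.38, SE 0.12, adjusted p 9.20e-07). Without the block 3 were called, and 4, 4 and 3 without the first FBS, the first MS- and the second MS- library.

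Some further called genes had large changes or were abundant. Lmnb1, a nuclear lamina protein of proliferating cells, fell from 22.3 and 22.7 to 2.56 and 6.15 CPM (-2.22, SE 0.23, adjusted p 4.20e-06). Nes, the intermediate filament nestin, fell from 136 and 93.2 to 32.2 and 23.5 CPM (-1.99, SE 0.14, adjusted p 6.55e-08). Tubb5, a tubulin, measured 1910 and 1642 CPM in FBS and 877 and 884 CPM in MS- (-1.01, SE 0.10, adjusted p 1.92e-06). Tns1, tensin, which links integrins to actin, rose from 612 and 714 to 1283 and 1385 CPM (1.01, SE 0.10, adjusted p 1.92e-06), and the integrin Itga8 rose from 128 and 172 to 332 and 374 CPM (1.24, SE 0.10, adjusted p 2.30e-07). Gas6, a growth arrest gene and ligand of TAM receptors, rose from 1741 and 1315 to 3059 and 2795 CPM (0.95, SE 0.10, adjusted p 3.04e-06). Hmox1, heme oxygenase, fell from 530.0 and 372 to 207 and 188 CPM (-1.17, SE 0.09, adjusted p 2.59e-07), while Gpx1, a glutathione peroxidase, rose from 178 and 179.6 to 353 and 337 CPM (0.94, SE 0.08, adjusted p 6.41e-07). All 8 genes were called without the block.

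**Figure D5:**
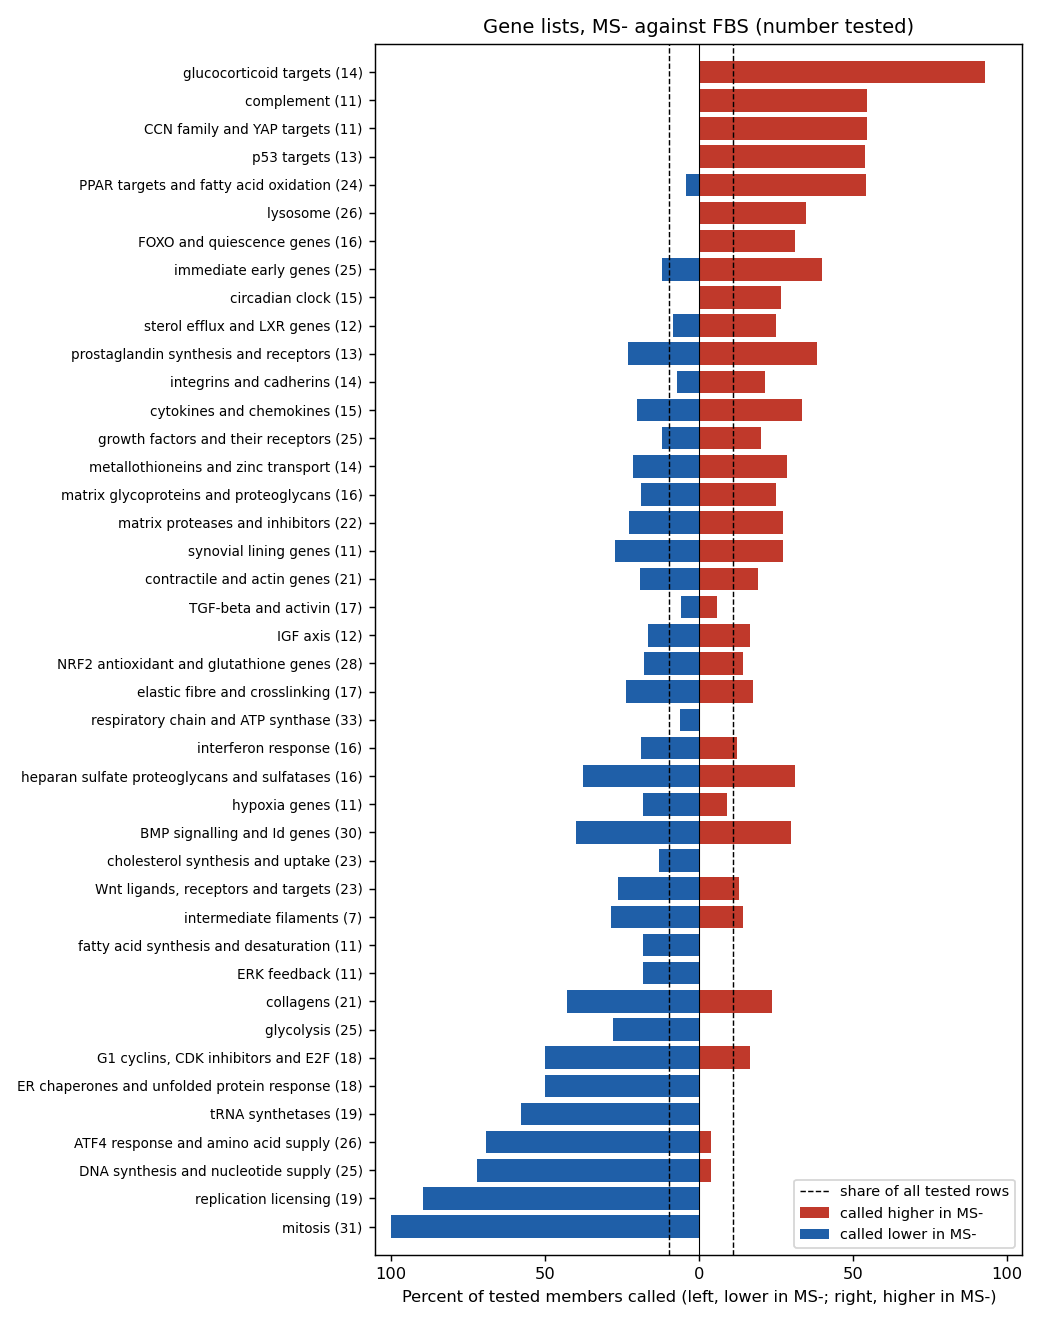
Percent of the tested members of each of 42 gene lists called higher (red, to the right) and lower (blue, to the left) in MS- (limma with the rat as a block, adjusted p under 0.05), with the number tested in brackets; dashed lines mark the share of all 9697 rows (11.0% higher and 9.75% lower). Mitosis (100% lower) and glucocorticoid targets (92.9% higher) stand at the 2 ends.

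The remaining lists stand beside all tested rows, of which 11.0% were higher and 9.75% lower. In some the share called higher lay near that of all rows, and the share called lower was above it. Antioxidant genes had 14.3% higher and 17.9% lower, hypoxia genes 9.09% and 18.2%, and interferon genes 12.5% and 18.8%. These shares called lower rest on 5, 2 and 3 genes. Lysosome genes rose in 9 of 26 cases and fell in none, led by Gla (0.83, SE 0.11, adjusted p 5.16e-05), the 1 called without the block. With FBS replicate 1, MS- replicate 1 or MS- replicate 2 left out, 5, 1 and 2 of them were called. Of 16 FOXO targets and quiescence genes 5 rose and none fell, 3 of them, Bcl6, Gas6 and Txnip, also without the block and without MS- replicate 1 or 2. Glycolysis genes fell in 7 of 25 cases and rose in none, and none was called without the block. The count was 1 without MS- replicate 1 and 2 without MS- replicate 2. Of 28 antioxidant and glutathione genes under NRF2, 4 rose and 5 fell (2 called without the block, 4 and 5 without MS- replicate 1 and 2). Of 23 Wnt genes 3 rose and 6 fell (1 without the block, 2 and 3 without MS- replicate 1 and 2). Growth factors and receptors had 5 of 25 higher and 3 lower (1 without the block, 5, 4 and 4 without the first FBS, the first MS- and the second MS- library). Contractile and actin genes had 4 of 21 higher and 4 lower, with 1 called without the block, 1 without MS- replicate 1 and 0 without MS- replicate 2. Of 17 elastic fibre genes 3 rose and 4 fell, of 14 integrin and cadherin genes 3 rose and 1 fell, of 16 interferon genes 2 rose and 3 fell, and of 12 genes of the IGF axis 2 rose and 2 fell. Leaving out MS- replicate 1 brought these counts of 7, 4, 5 and 4 to 3, 1, 3 and 1, leaving out MS- replicate 2 to 3, 1, 2 and 2, and without the block they were 0, 1, 1 and 0. The integrin count was 2 without FBS replicate 1, and the IGF count was 2 without FBS replicate 2. Of 11 hypoxia genes 1 rose and 2 fell, of 17 TGF-beta and activin genes 1 rose and 1 fell, and of 7 intermediate filament genes 1 rose and 2 fell. Without the block 0, 0 and 2 of these were called, and without MS- replicate 1 or 2 the counts were 1, 1 and 2. The TGF-beta count was 1 without FBS replicate 1 and 5 without FBS replicate 2, and with an MS+ library left out it was 5 and the filament count 5. The respiratory chain and ATP synthase had 2 of 33 genes lower and none higher, a smaller share than the 9.75% of all rows. None of its genes was called without the block or without MS- replicate 2, and 1 was called with any other FBS or MS- library left out.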

How the data were processed

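Poly(A) RNA of cultured synovial fibroblasts was sequenced on an Illumina instrument in 6 libraries, 2 rats in each of FBS, MS- and MS+. The authors aligned reads to rn4 with Bowtie2, counted them per transcript with HTSeq and deposited signal values that are read counts divided by TMM-scaled library sizes, in CPM. Use of strand in counting was not given in the sources used here, so overlapping and antisense genes cannot be separated. Among the tested rows 757 overlapped a row of another symbol and 203 a row of the same symbol. Whole reads were recovered for 100% of the values within 1e-06 reads.

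Rows with 1 CPM or more in both libraries of FBS or of MS- were tested with limma 3.58.1 in R 4.3.3, two-sided, on log2(CPM + 1), with the 6 libraries, culture condition and rat as terms, and Benjamini-Hochberg adjustment. Labels tie the numbers to 2 rats, and the rat 2 minus rat 1 differences of MS- and FBS correlated at 0.623 across rows. A call was an adjusted p under 0.05. Alternatives were no block, the 4 libraries alone, other scaling, pseudocount and filters, voom, edgeR 4.0.16 and DESeq2 1.42.0 on recovered reads, and each library left out. Counting intervals (95%, exact) and floors of 3 reads cover counting error only.

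Named genes were the 12 largest called rises and falls with a mean of at least 1 CPM and one direction in both rats, the 6 largest called changes and the most abundant tested member of each list, the 6 most abundant called rows with 2-fold or more, and the markers. Genes named outside it are marked. The 42 gene lists, 6 marker lists and the comparison itself were chosen with earlier results of these data known. Gene symbols are mostly those of the deposited data, some of them older names. List members were also looked up by their RefSeq (GRCr8) names, for which 16169 accessions matched. Promoter windows came from RefSeq (GRCr8). For 3 genes results are not reported here. They stay in the fits and in the counts and medians of the lists and are left out of the plots of single genes.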

Additional observations from a re-analysis of the deposited data

How the results depend on the processing

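The count of adjusted calls depended on the fit more than the count of 2-fold calls did. Against 2010 adjusted calls with the rat as a block, limma without the replicate block gave 471, testing rows without a filter 1290, and DESeq2 with the block 808. edgeR without the block, an alternative chosen after seeing the data, gave 483. Leaving out one library at a time gave 630 to 2755, with the lowest counts without MS- replicate 1 (630) and MS- replicate 2 (648), 1227 without FBS replicate 1, and the highest, 2755, without an MS+ library. A lone library left in a group was assumed to vary like the others. The cause of these shifts was not tested. The 4 libraries alone, other scalings, a pseudocount of 0.1, a filter over 3 groups, edgeR with the block and voom gave 1968 to 2770. Scaling by library totals split the calls into 920 higher and 1048 lower. The 379 2-fold calls ranged from 354 to 530 over all of these settings. No named gene changed direction. The named genes include some, such as Rfc1 and Fn1, that were not called with the block and so had no call to lose. Of 260 named genes, 135 lost the adjusted call without the block, 93 without MS- replicate 1 and 90 without MS- replicate 2. With 2 rats per serum, differences specific to a rat and genes near 1 CPM are poorly resolved.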
